A study of Homo sapiens with 12 samples.

Results

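Glucose uptake, glycolysis and the pentose phosphate pathway were followed through 33 genes of this carbon route in HK-2 cells, an established immortalized human kidney line labelled as proximal tubular epithelium. The genes were taken as a list chosen with earlier results of these data known, which limits how their shares compare with those of all genes. Each was read from its brightest probe set by the mean over 12 arrays. A probe set under the gene's symbol was found for 31 of the 33, and 30 passed the filter on low values, a log2 value above 4 on all 3 arrays of at least 1 group, among 10508 genes that passed it of 19775 with a probe set. ALDOC, a brain-type aldolase, lay between 2.20 and 2.29 on every array and was not tested, and the lactate carriers SLC16A1 and SLC16A3 were not analysed here.

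The 4 groups of 3 cultures each were cells exposed to CsA for 48 h, vehicle controls at 48 h, cells exposed to CsA for 12 h, and vehicle controls at 12 h. CsA is read here as cyclosporine A, a calcineurin inhibitor used as an immunosuppressant and known to injure the kidney, and its dose was not given in the sources used here. All cultures were of 1 line, grown in medium with 5 mM glucose, insulin, epidermal growth factor and hydrocortisone, and were treated 24 h after seeding at about 90% confluency. A 48 h culture therefore also differed from a 12 h culture in time since seeding, which cannot be told apart from time under treatment.

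Glucose enters these cells through carriers of the SLC2A family and is trapped by hexokinase as glucose 6-phosphate, from which glycolysis leads to pyruvate and lactate and the pentose phosphate pathway to NADPH and ribose 5-phosphate. Several steps have isoenzymes from different genes, and phosphofructokinase, pyruvate kinase and pyruvate dehydrogenase are the main points of control after hexokinase. Proximal tubule in the kidney is known more for making glucose than for burning it, while its cultured lines are known to rely on glycolysis. In bulk RNA, fewer cells of a type and less RNA per cell cannot be told apart.

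The median log2 value of an array ranged from 2.85 to 2.96. None of 10 markers of differentiated proximal tubule exceeded 4 in any group, including LRP2, CUBN and AQP1, whereas all 7 keratin, vimentin and junction markers of cultured epithelium did. Of the other marker lists, 3 of 6 fibroblast genes (COL1A1, DCN, LUM), 1 of 5 of distal nephron and collecting duct (AQP2), 1 of 3 of podocytes (PODXL), 1 of 4 of endothelium (PECAM1) and none of 4 leukocyte genes exceeded it, and the summed fibroblast level ran from 30.8 to 35.0 in CsA cultures and from 31.7 to 35.1 in controls at 48 h. CsA and control arrays of the same time and number deviated together from their group means, with correlations of 0.366 to 0.591 at 12 h and 0.545 to 0.783 at 48 h, so numbered pairs are given below. Replicate 3 at 48 h stood apart. The CsA array of that number lay nearer to the CsA 12 h mean than to the mean of the other 2 CsA 48 h arrays for 18 of the 30 genes (60.0%), against 61.9% of all genes tested. Its control partner did so, against controls, for 16 of the 30 (53.3%), against 46.4% of all genes. Results at 48 h are therefore also given without that pair or array.

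The regions just upstream of 5 of these genes are shown because the genes represent the 2 directions of the 48 h change described below: SLC2A1, ENO2 and PDK1 were higher and PGK1 and PKM lower. Each sequence is 250 bases ending at the base before the annotated start, 5′ to 3′ on the gene's strand, from RefSeq on GRCh38.p14. Capitals mark ACGTG on either strand (CACGT where it lies on the opposite strand), the core of the hypoxia response element, which also forms part of the E-box CACGTG.
SLC2A1 (chr1:42958869-42959118, minus strand): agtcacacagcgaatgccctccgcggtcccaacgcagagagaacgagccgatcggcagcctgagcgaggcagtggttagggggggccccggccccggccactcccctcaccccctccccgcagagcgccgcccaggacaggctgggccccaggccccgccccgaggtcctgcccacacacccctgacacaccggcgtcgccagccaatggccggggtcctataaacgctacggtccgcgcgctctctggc
ENO2 (chr12:6914330-6914579, plus strand): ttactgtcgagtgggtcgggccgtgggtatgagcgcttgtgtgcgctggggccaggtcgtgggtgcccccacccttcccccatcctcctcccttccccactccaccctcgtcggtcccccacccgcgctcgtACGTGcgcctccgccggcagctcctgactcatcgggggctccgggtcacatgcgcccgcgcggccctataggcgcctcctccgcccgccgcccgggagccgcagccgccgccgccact
PDK1 (chr2:172555840-172556089, plus strand): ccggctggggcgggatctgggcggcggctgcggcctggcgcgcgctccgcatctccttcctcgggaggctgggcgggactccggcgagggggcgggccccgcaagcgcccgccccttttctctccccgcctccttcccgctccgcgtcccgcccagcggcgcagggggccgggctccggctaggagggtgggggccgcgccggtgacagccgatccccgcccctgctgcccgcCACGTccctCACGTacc
PGK1 (chrX:78103998-78104247, plus strand): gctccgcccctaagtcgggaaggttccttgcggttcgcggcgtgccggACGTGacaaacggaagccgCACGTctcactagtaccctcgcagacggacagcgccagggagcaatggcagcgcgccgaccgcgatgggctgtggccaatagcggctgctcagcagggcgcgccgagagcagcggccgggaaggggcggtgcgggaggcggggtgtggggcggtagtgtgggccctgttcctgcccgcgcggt
PKM (chr15:72231191-72231440, minus strand): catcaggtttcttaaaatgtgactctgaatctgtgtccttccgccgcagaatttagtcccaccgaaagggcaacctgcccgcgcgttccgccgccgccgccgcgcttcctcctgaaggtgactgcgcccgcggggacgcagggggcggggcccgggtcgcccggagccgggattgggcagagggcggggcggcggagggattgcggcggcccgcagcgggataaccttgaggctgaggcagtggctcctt

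ENO2 carried 1 match, PDK1 2 matches close to its start in the second of its 2 windows, and PGK1 2 matches, while SLC2A1 and PKM carried none in these letters. At least 1 window held ACGTG for 14 of 28 listed genes with a window (50.0%), against 21.7% of 27305 genes, and genes with several windows had more chances to match. Of 52 windows of the listed genes 32.7% held it, against 18.5% of 35116 windows. The E-box was found in 6 of the 28 (21.4%), against 7.73% of all genes, and each of its copies counts as 2 overlapping ACGTG matches. Among genes that rose or fell between the times in at least 1 treatment, a match was present for 3 of 6 higher genes with a window (ENO2, PDK1, PDK2) and for 2 of 6 lower ones (ALDOA, PGK1). A match is a description of the letters, and binding was not measured.

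The first question was how these genes stood at 48 h against 12 h. In controls, the glucose carriers SLC2A1 and SLC2A3, the neuronal-type enolase ENO2, PFKFB2, PDK1, PGLS and TKT rose at 48 h, and PGAM1, PKM, PFKFB4 and RPIA fell. By limma with Benjamini-Hochberg adjustment over all genes tested, 11 of the 30 passed in controls, 7 higher and 4 lower, where 26.2% of all genes tested passed (12.5% higher and 13.7% lower). Under CsA 8 of the 30 passed, 3 higher and 5 lower, where 14.4% of all genes passed (6.77% higher and 7.58% lower). The median difference over the 30 genes was -0.09 log2 under CsA and -0.10 in controls, against 0.01 over all genes in each. Groups did not overlap upward for 7 of the 30 under CsA (23.3%, against 16% of all genes) and for 10 in controls (33.3%, against 24.9%), and downward for 10 under CsA (33.3%, against 18.9%) and for 4 in controls (13.3%, against 25.2%). The counts rested on single arrays: leaving out 1 array at a time gave 1 to 18 genes under CsA and 4 to 13 in controls. The 18 came without CsA 48 h replicate 3, where 3885 of all 10508 genes passed, against 1508 with all arrays. The 13 came without control 48 h replicate 3, and leaving out 1 array gave 1322 to 3189 of all genes in controls. Single-gene p-values given below without these arrays come from the same fits. A fit on the 6 CsA arrays alone called 0 of the 30 under CsA and 34 of all genes.

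**Figure D1:**
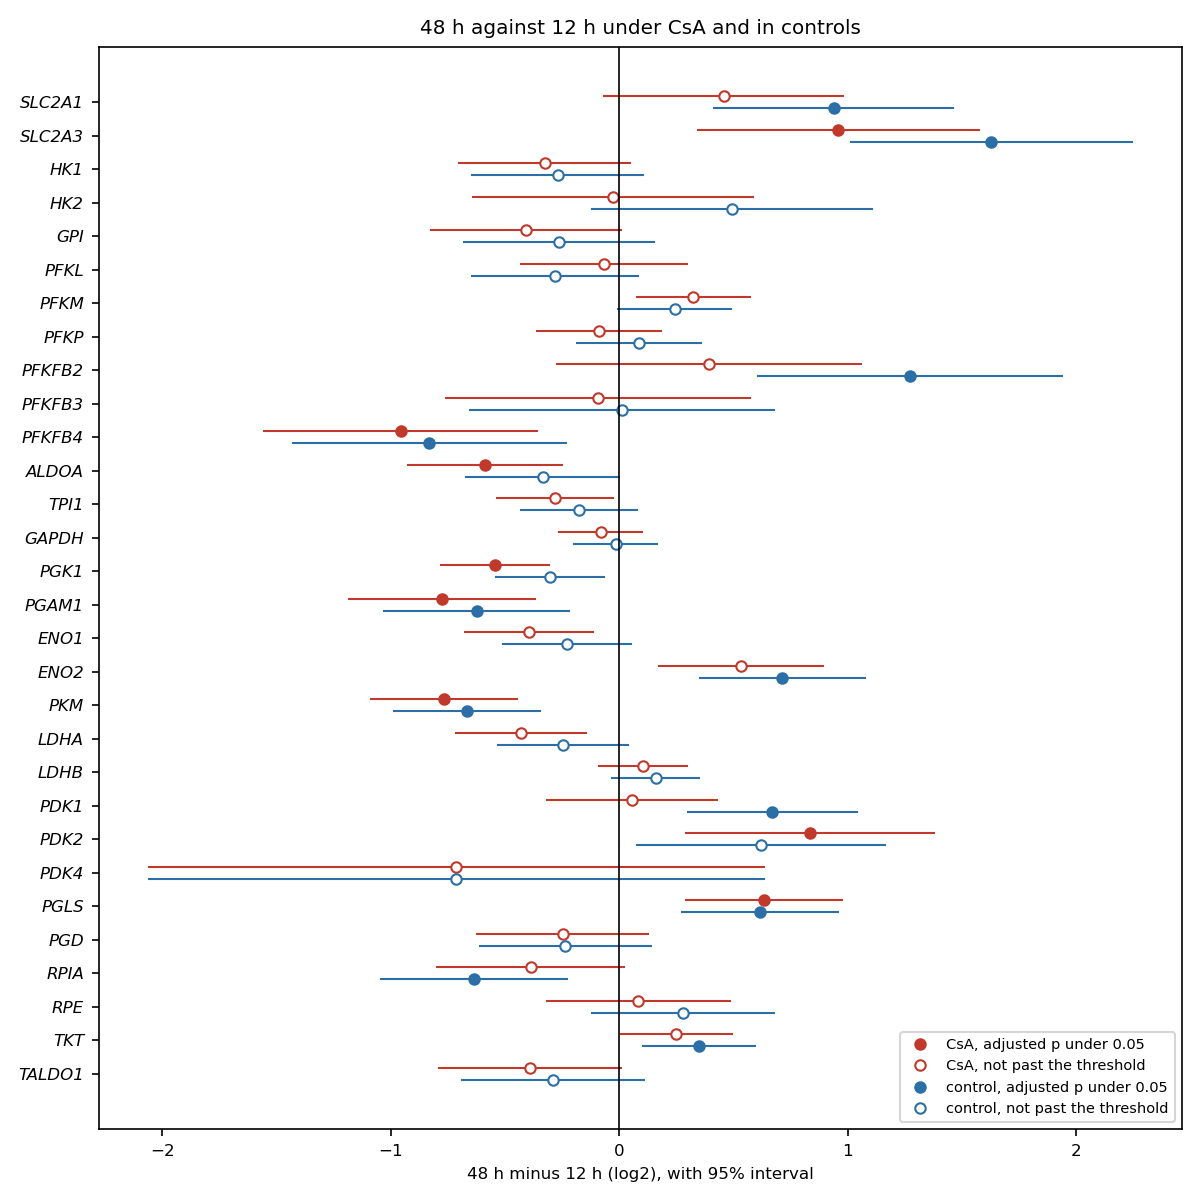
Difference between 48 h and 12 h (log2, points) with its 95% interval (lines) for the 30 tested genes, CsA in red above control in blue; filled points passed the limma test at an adjusted p of 0.05. SLC2A3, PGLS, PFKFB4, PGAM1 and PKM are filled in both treatments, and most other genes of the trunk lie left of 0.

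SLC2A1 encodes GLUT1, the carrier of basal glucose uptake in most cells. At 48 h it read 8.68, 8.80 and 7.73 in CsA cultures (replicates 1 to 3) and 8.92, 8.88 and 8.88 in controls. At 12 h it read 8.07, 7.79 and 7.98 under CsA and 8.15, 7.77 and 7.95 in controls. All 3 controls at 48 h lay above all 12 h arrays, and CsA 48 h replicate 3 lay at the 12 h level, below every other array. The control difference of 0.94 log2 (SE 0.24, 1.92-fold, adjusted p = 0.019) passed the test, and that under CsA, 0.46 (SE 0.24, adjusted p = 0.21), did not. Without CsA 48 h replicate 3 the CsA difference was 0.79 (adjusted p = 0.0023). The control call was lost without any 1 of 4 arrays (control replicates 2 and 3 at 12 h, 1 and 2 at 48 h), with adjusted p up to 0.067.

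SLC2A3 encodes GLUT3, a carrier of high glucose affinity best known from neurons, and had the largest rise of the 30 genes in both treatments. At 48 h the values were 9.65, 9.89 and 8.92 under CsA and 9.88, 10.11 and 10.19 in controls. At 12 h they were 8.92, 8.58 and 8.09 under CsA and 8.72, 8.51 and 8.06 in controls. The times did not overlap within either treatment, though CsA 48 h replicate 3 stood only just above the highest CsA 12 h array. The difference was 0.96 under CsA (SE 0.28, 1.94-fold, adjusted p = 0.046) and 1.63 in controls (SE 0.28, 3.09-fold, adjusted p = 0.0040). The control call held without any 1 array (adjusted p up to 0.020), whereas of 6 single arrays left out the CsA call was kept only without CsA 48 h replicate 3 (1.24, adjusted p = 0.0054) and reached 0.15 without others. No RefSeq window was used for this gene.

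**Figure D2:**
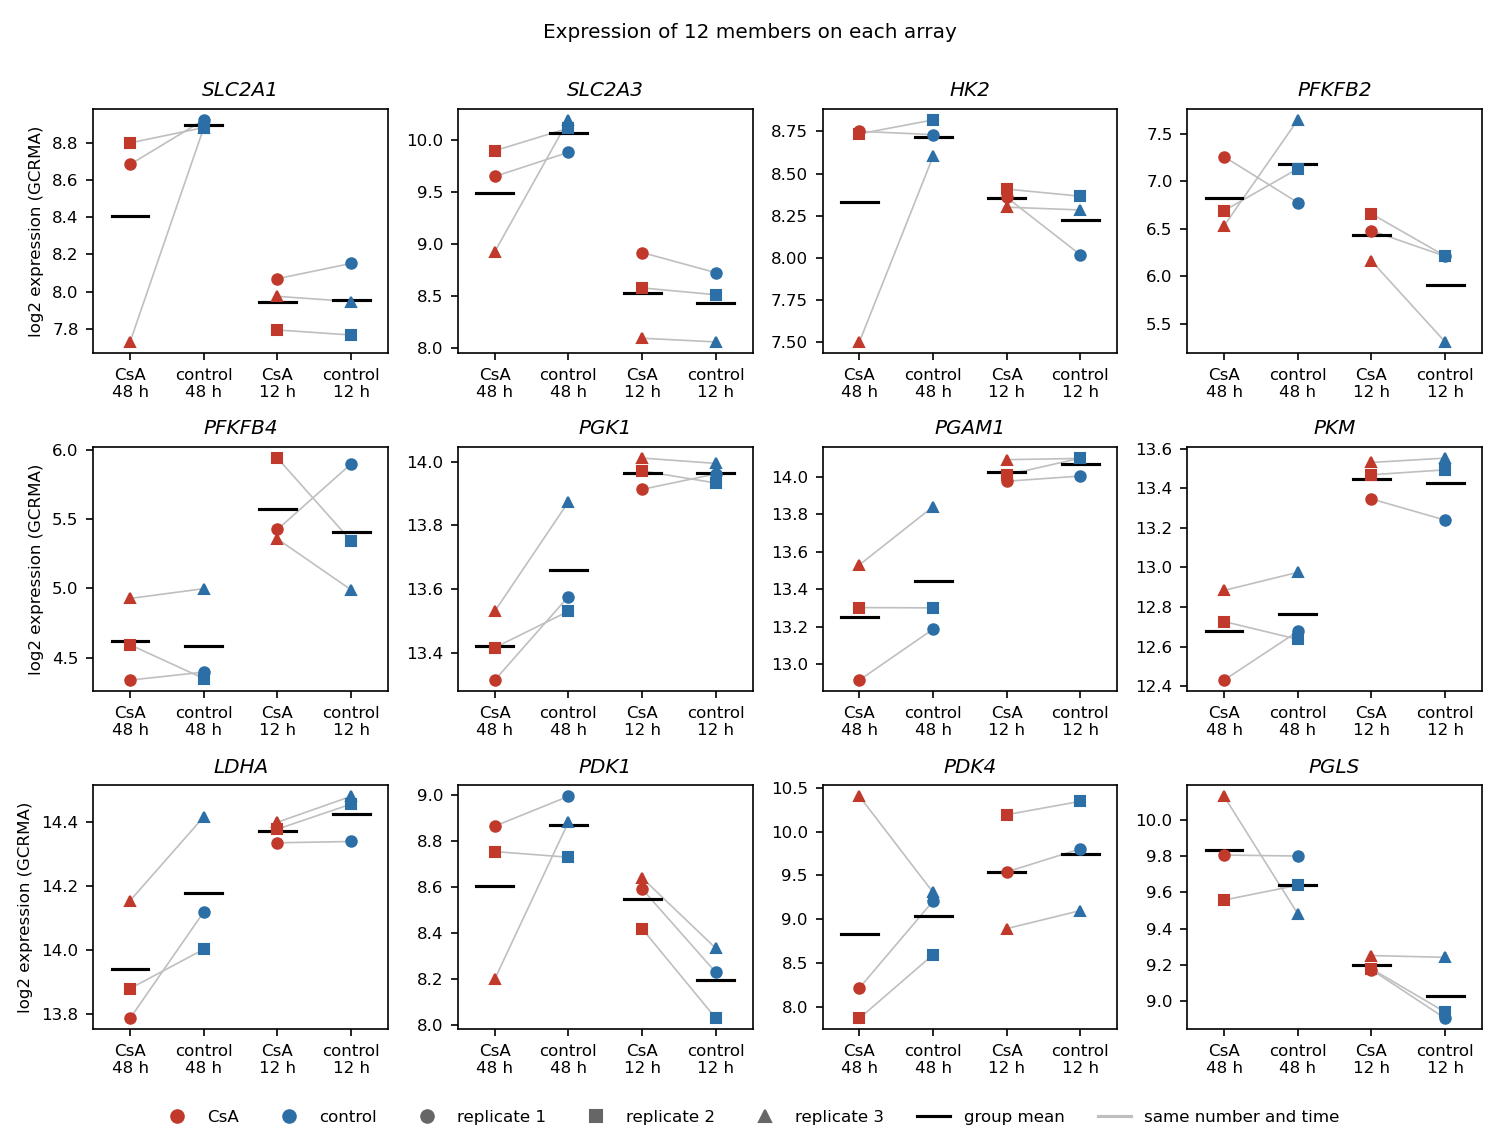
Log2 expression of 12 of the genes on every array, by treatment and time; marker shape gives the replicate number, black bars are group means and grey lines join CsA and control of 1 number and time. In SLC2A1, HK2 and PDK1 the CsA 48 h triangle (replicate 3) lies far below its partner, at 7.73, 7.50 and 8.20, and in PDK4 far above it, at 10.40.

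The hexokinases trap glucose inside the cell, HK1 as the housekeeping form and HK2 as the regulated one. HK2 at 48 h read 8.75, 8.74 and 7.50 under CsA and 8.73, 8.82 and 8.60 in controls, and at 12 h 8.36, 8.41 and 8.30 under CsA and 8.02, 8.37 and 8.28 in controls. Every control at 48 h was thus above every control at 12 h, while under CsA 2 arrays were above and 1 below. Neither difference passed (-0.03 under CsA, adjusted p = 0.96, and 0.49 in controls, adjusted p = 0.20), and the control difference did in a fit on the 6 control arrays alone (adjusted p = 0.033). Without CsA 48 h replicate 3 the CsA value turned to 0.39 (adjusted p = 0.030). HK1 differed by -0.33 under CsA and -0.27 in controls and did not pass with all arrays, and without CsA 48 h replicate 3 the CsA difference of -0.47 did (adjusted p = 0.049). The median over the 2 carriers and 2 hexokinases, relative to the control 12 h mean, was 0.63, 0.68 and -0.24 in CsA 48 h replicates 1 to 3 and 0.74, 0.76 and 0.65 in controls at 48 h.

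Phosphofructokinase commits hexose to glycolysis, and its 3 subunit genes all passed the filter and none passed the time test. PFKL, the liver type, differed by -0.07 under CsA and -0.28 in controls, PFKM, the muscle type, by 0.32 and 0.24, and PFKP, the platelet type, by -0.09 and 0.09. GPI, the hexose isomerase before this step, differed by -0.41 under CsA and -0.26 in controls, and under CsA passed with CsA 48 h replicate 3 left out (-0.57, adjusted p = 0.032) and with a block shared over all groups (adjusted p = 0.035). The PFKFB enzymes make and break fructose 2,6-bisphosphate, the activator of phosphofructokinase, and went in opposite directions.

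PFKFB2, the heart-type form, read 7.26, 6.69 and 6.53 under CsA and 6.77, 7.13 and 7.64 in controls at 48 h. At 12 h it read 6.48, 6.66 and 6.16 under CsA and 6.21, 6.21 and 5.31 in controls. The control times did not overlap and the CsA times did. The difference of 1.27 in controls passed (SE 0.30, adjusted p = 0.015, 0.053 without control 12 h replicate 3), and 0.39 under CsA did not (adjusted p = 0.39). PFKFB4, the testis-type form, read 4.34, 4.59 and 4.93 under CsA and 4.39, 4.35 and 5.00 in controls at 48 h, against 12 h values of 5.43, 5.94 and 5.36 under CsA and 5.90, 5.34 and 4.99 in controls. It fell by 0.96 under CsA (SE 0.27, adjusted p = 0.043) and by 0.83 in controls (SE 0.27, adjusted p = 0.046), with overlap between the control times. Both calls were lost without most single arrays, with adjusted p up to 0.14 under CsA and 0.15 in controls. PFKFB3, the inducible form, differed by -0.09 under CsA and 0.01 in controls and did not pass.

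From aldolase to lactate, the genes went in both directions. ENO2 and LDHB had higher means at 48 h, by 0.53 and 0.10 under CsA and by 0.71 and 0.16 in controls. ALDOA, TPI1, GAPDH, PGK1, PGAM1, ENO1, PKM and LDHA had lower means in both treatments. Of these 8, 4 passed the test under CsA (ALDOA, PGK1, PGAM1, PKM) and 2 in controls (PGAM1, PKM). The 8 were grouped by their direction, so their share cannot be set against that of all genes. Of the 30 genes, 5 were called lower under CsA (16.7%, against 7.58% of all genes). In controls 4 of the 30 were called lower (13.3%, against 13.7%). PKM, pyruvate kinase of non-liver tissue, read 12.43, 12.73 and 12.88 under CsA and 12.68, 12.64 and 12.98 in controls at 48 h, against 13.35, 13.47 and 13.53 under CsA and 13.24, 13.49 and 13.55 in controls at 12 h. Every 48 h array lay below every 12 h array. It fell by 0.77 under CsA (SE 0.15, 0.587-fold, adjusted p = 0.010) and by 0.67 in controls (SE 0.15, 0.630-fold, adjusted p = 0.011), and was the 1 gene of the 30 called in both treatments without any single array, with adjusted p up to 0.048 and 0.046.

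PGAM1, phosphoglycerate mutase, read 12.91, 13.30 and 13.53 under CsA and 13.19, 13.30 and 13.84 in controls at 48 h, below the 12 h values of 13.98, 14.01 and 14.09 under CsA and 14.00, 14.10 and 14.10 in controls. It fell by 0.78 (SE 0.19, adjusted p = 0.024) under CsA and by 0.62 (SE 0.19, adjusted p = 0.033) in controls. Replicate 3 lay highest at 48 h in both treatments. With single arrays left out, each call held only without replicate 3 of that treatment at 48 h, and the adjusted p without another array reached 0.082 under CsA and 0.12 in controls.

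PGK1, phosphoglycerate kinase, makes the first ATP of the pathway. It read 13.31, 13.42 and 13.53 under CsA and 13.58, 13.53 and 13.87 in controls at 48 h, against 13.91, 13.97 and 14.01 under CsA and 13.96, 13.93 and 13.99 in controls at 12 h. The times did not overlap in either treatment. PGK1 fell by 0.54 under CsA (SE 0.11, adjusted p = 0.012, 0.055 without CsA 12 h replicate 3), and its control difference was -0.30 (SE 0.11, adjusted p = 0.062, 0.017 without control 48 h replicate 3). The control difference also passed with a variance trend and robust moderation (adjusted p = 0.031) and with a block shared over all groups (adjusted p = 0.035). It reached 0.19 without another single array. The other PGK1 probe sets past the filter differed by -0.35, -0.91, -0.65 and -0.76 in controls. ALDOA, the muscle-type aldolase, fell by 0.59 under CsA (SE 0.15, adjusted p = 0.032), with -0.34 in controls (adjusted p = 0.12). With single arrays left out, its CsA call was kept only without CsA 48 h replicate 3, reaching 0.11 without others, and the control difference passed without control 48 h replicate 3 (adjusted p = 0.038) and, narrowly, with a block shared over all groups (adjusted p = 0.0495).

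Triose phosphate isomerase, TPI1, differed by -0.28 under CsA and -0.18 in controls, and GAPDH by -0.08 and -0.02, the smallest of the trunk, with values between 15.03 and 15.24 on all arrays. ENO1, the ubiquitous enolase, differed by -0.40 under CsA (adjusted p = 0.063, 0.0092 without CsA 48 h replicate 3) and -0.23 in controls. LDHA, the subunit that favours lactate formation, read 13.79, 13.88 and 14.15 under CsA and 14.12, 14.00 and 14.42 in controls at 48 h, against 14.34, 14.38 and 14.40 under CsA and 14.34, 14.46 and 14.48 in controls at 12 h. Its CsA times did not overlap, at a difference of -0.43 (adjusted p = 0.051, 0.0095 without CsA 48 h replicate 3), and its control times did, at -0.25 (adjusted p = 0.18). LDHB, the heart-type subunit, differed by 0.10 under CsA and 0.16 in controls and did not pass.

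ENO2 is the enolase best known from neurons. It read 9.11, 9.25 and 9.10 under CsA and 9.31, 9.07 and 9.62 in controls at 48 h, against 8.80, 8.65 and 8.41 under CsA and 8.70, 8.79 and 8.38 in controls at 12 h. The times did not overlap in either treatment. The difference of 0.71 in controls passed (SE 0.16, adjusted p = 0.013, 0.054 without control 12 h replicate 3), and 0.53 under CsA came close (SE 0.16, adjusted p = 0.054, 0.040 without CsA 48 h replicate 3).

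**Figure D3:**
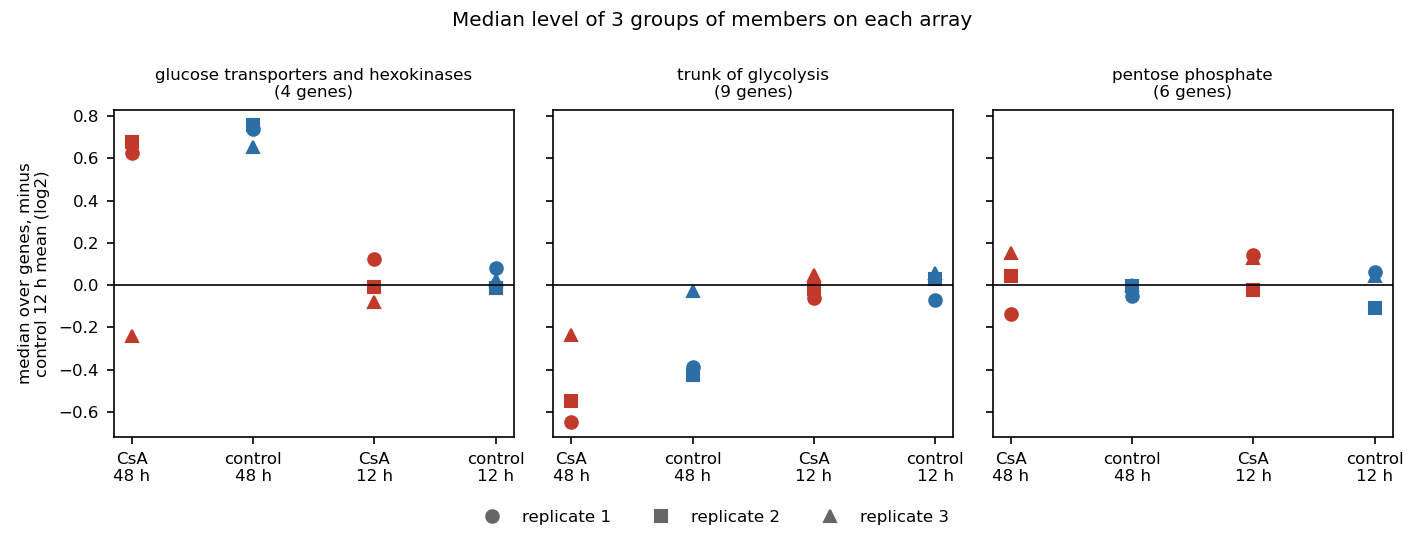
Median log2 level on each array, relative to the control 12 h mean of each gene, over 4 carriers and hexokinases, 9 genes of the glycolytic trunk and 6 pentose phosphate genes; colours are CsA (red) and control (blue). At 48 h the medians of the carriers and hexokinases lie between 0.63 and 0.76 except CsA replicate 3 at -0.24. Those of the trunk, taken without PFKL, PFKM, PFKP, ENO2 and LDHB, lie between -0.65 and -0.03. Those of the pentose phosphate genes lie within 0.16 of 0. A median can hide opposite changes: in controls PGLS differed by 0.62 and RPIA by -0.64, and HK2 by 0.49 and HK1 by -0.27.

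A median was taken over 9 genes of the trunk: GPI, ALDOA, TPI1, GAPDH, PGK1, PGAM1, ENO1, PKM and LDHA. PFKL, PFKM, PFKP, ENO2 and LDHB were left out, and of these PFKM, ENO2 and LDHB had higher means at 48 h in both treatments. Relative to the control 12 h mean, the medians were -0.65, -0.55 and -0.23 in CsA 48 h replicates 1 to 3. In controls at 48 h they were -0.39, -0.42 and -0.03. Replicate 3 thus lay closest to the 12 h level in both treatments, and each CsA array lay below its own partner.

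The pyruvate dehydrogenase kinases phosphorylate pyruvate dehydrogenase and so restrain the conversion of pyruvate to acetyl-CoA. PDK1 read 8.86, 8.75 and 8.20 under CsA and 8.99, 8.73 and 8.88 in controls at 48 h, against 8.59, 8.42 and 8.64 under CsA and 8.23, 8.03 and 8.33 in controls at 12 h. The control times were separate and the CsA times overlapped through replicate 3. It rose by 0.67 in controls (SE 0.17, adjusted p = 0.018) and differed by 0.06 under CsA (adjusted p = 0.85). Without CsA 48 h replicate 3 the CsA difference was 0.26 (adjusted p = 0.13). The control call was lost on leaving out replicate 2 at 12 h or replicate 1 at 48 h (adjusted p up to 0.067), and with the mean of its probe sets, where the difference was 0.44 (adjusted p = 0.098).

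PDK2 rose by 0.84 under CsA (SE 0.25, adjusted p = 0.048), and its control difference was 0.62 (SE 0.25, adjusted p = 0.085, 0.041 without control 48 h replicate 3). With single arrays left out, the CsA call was kept only without CsA 48 h replicate 2, and reached 0.15 without others. PDK4, a kinase known to follow fasting and fatty acid use, varied most: 8.22, 7.87 and 10.40 under CsA and 9.21, 8.60 and 9.31 in controls at 48 h, and 9.54, 10.19 and 8.89 under CsA and 9.80, 10.35 and 9.10 in controls at 12 h. CsA 48 h replicate 3 was the highest of all 12 arrays. The difference was -0.71 in both treatments and did not pass, and it was -1.50 under CsA without that replicate (adjusted p = 0.021).

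The oxidative pentose phosphate branch makes NADPH. PGLS, its lactonase, read 9.81, 9.56 and 10.13 under CsA and 9.80, 9.64 and 9.48 in controls at 48 h, against 9.17, 9.18 and 9.25 under CsA and 8.90, 8.94 and 9.24 in controls at 12 h. The times did not overlap, and it rose by 0.63 under CsA (SE 0.16, adjusted p = 0.026) and by 0.62 in controls (SE 0.16, adjusted p = 0.018). Both calls were lost without 4 of 6 single arrays, with adjusted p up to 0.082 under CsA and 0.068 in controls. PGD, the second dehydrogenase, differed by -0.25 under CsA and -0.24 in controls and did not pass, except under CsA without CsA 48 h replicate 3 (-0.44, adjusted p = 0.036).

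In the non-oxidative branch, RPIA, ribose 5-phosphate isomerase, fell by 0.64 in controls (SE 0.19, adjusted p = 0.031), with -0.39 under CsA (adjusted p = 0.17, 0.033 without CsA 48 h replicate 3). With single arrays left out, the control call was kept only without control 48 h replicate 3. TKT, transketolase, rose by 0.35 in controls (SE 0.11, adjusted p = 0.043), with 0.25 under CsA (adjusted p = 0.15), and the control call was lost without all but 1 of the 6 single arrays (adjusted p up to 0.14). Of its 3 probe sets, 2 were higher in controls at 48 h (0.35 and 0.43) and the dimmest was lower (-1.14), so the direction of TKT depends on the probe set. RPE, the epimerase, differed by 0.08 under CsA and 0.28 in controls. TALDO1, transaldolase, differed by -0.39 under CsA and -0.29 in controls, and passed only under CsA without CsA 48 h replicate 3 (-0.58, adjusted p = 0.019).

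Of the 14 genes called in either treatment, 5 were called in both (SLC2A3, PFKFB4, PGAM1, PKM, PGLS), 6 in controls alone (SLC2A1, PFKFB2, ENO2, PDK1, RPIA, TKT) and 3 under CsA alone (ALDOA, PGK1, PDK2). These lists do not show that the treatments differ. With the numbered pairs as a random block within time, the CsA calls of SLC2A3, PFKFB4, PDK2 and PGLS (adjusted p from 0.051 to 0.059) and the control call of PFKFB4 (0.062) were lost, while ENO1 (0.046) and LDHA (0.041) passed under CsA. The difference between the time changes, tested as the CsA effect at 48 h minus that at 12 h, passed for 0 of the 30 genes and for 0 of all genes tested (0%), with 1.54% of all genes under an unadjusted p of 0.05. The block on the numbered pairs also called 0 genes (0%). At an unadjusted p of 0.05 it had 2 of the 30 lower, SLC2A3 and PDK1 (6.67%, against 4.95% of all genes), and 0 higher (against 4.2%).

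Whether CsA itself moved these genes was asked at each time. At 12 h none of the 30 passed, and 0 of all genes did (0%), with 138 genes (1.31%) under an unadjusted p of 0.05. With the numbered pairs as a block, 3 genes of all tested passed (0.0285%), none of them among the 30. CsA was above control for 17 of the 30 (56.7%, against 45.3% of all genes) and below for 13. The median difference was 0.01 log2, against -0.01 over all genes. Within pairs 1 to 3 the median was 0.03, -0.02 and 0.02. All 3 pairs were above 0 for 7 of the 30 (SLC2A3, HK2, PFKFB2, PDK1, PGLS, RPE, TALDO1; 23.3%, against 18.9% of all genes) and below 0 for 7 (HK1, PFKM, PFKFB3, PGAM1, LDHA, PDK4, RPIA; 23.3%, against 22.5%), shares near those of all genes.

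Groups did not overlap at 12 h for PDK1, which was higher, and for HK1 and RPIA, which were lower, 1 and 2 of 30, where 5.37% and 6.57% of all genes did so upward and downward. PDK1 was above control by 0.36, 0.39 and 0.31 in pairs 1 to 3. The mean difference was 0.35 (95% interval -0.02 to 0.73, adjusted p = 1.00), and both probe sets of PDK1 past the filter had the same sign. HK1 read 10.68, 10.69 and 10.74 under CsA and 10.89, 10.81 and 11.06 in controls, a difference of -0.22 (95% interval -0.60 to 0.16). RPIA read 8.31, 8.24 and 8.30 under CsA and 8.64, 8.39 and 8.61 in controls, a difference of -0.27 (95% interval -0.68 to 0.15). These 3 were also the genes of the 30 under an unadjusted p of 0.05 with the block, where 7.28% of all genes were, 3.49% higher and 3.79% lower.

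**Figure D4:**
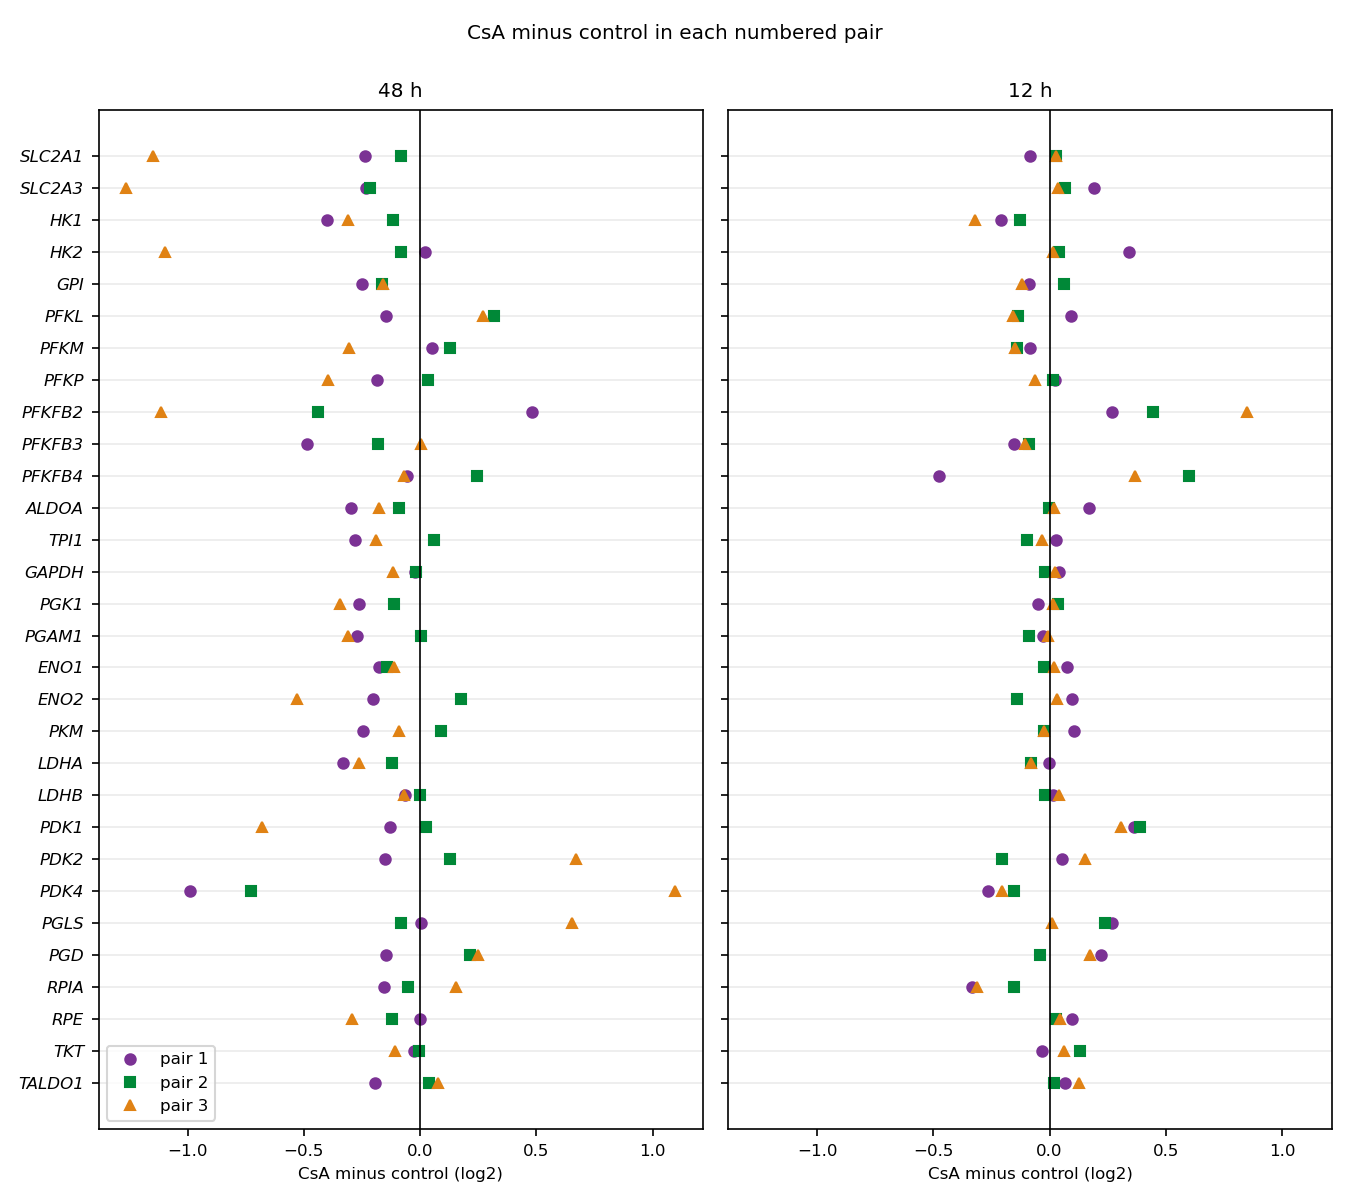
CsA minus control (log2) in each numbered pair at 48 h (left) and 12 h (right) for the 30 tested genes; each symbol is 1 pair. At 48 h most points lie left of 0, and pair 3 lies below -1 for SLC2A1, SLC2A3, HK2 and PFKFB2 and above 1 for PDK4.

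At 48 h no gene of the 30 passed either, and 0 of all genes did (0%), with 265 genes (2.52%) under an unadjusted p of 0.05 and 0 called with the block. CsA lay below control for 25 of the 30 genes and above it for 5 (16.7%, against 45.3% of all genes). The median difference was -0.16 log2, against -0.02 over all genes. Pair medians were -0.18, -0.03 and -0.17, and pairs 1 to 3 had 26, 18 and 22 of the 30 below 0. Of all genes, 50.3%, 49.6% and 55.9% lay below 0 in these pairs. Without pair 3, 25 of the 30 were still below 0 and the median was -0.08, against 0.00 over all genes and 49.7% of them below 0.

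All 3 pairs were below 0 for 12 of the 30 (SLC2A1, SLC2A3, HK1, GPI, ALDOA, GAPDH, PGK1, ENO1, LDHA, LDHB, RPE, TKT; 40.0%), against 16.2% of all genes, and above 0 for 0 of the 30, against 13.4%. Groups did not overlap for SLC2A1, PGK1 and LDHB, all lower, 3 of 30 (10.0%), against 2.49% of all genes, and upward for none, against 2%. Of these, only SLC2A1 was clearly apart. The nearest CsA and control arrays read 13.5303 and 13.5304 for PGK1 and 14.939 in both groups for LDHB, all but ties. In 3 of the 12 (LDHB, RPE, TKT) a pair lay within 0.01 of 0. With the block, 7 of the 30 lay lower at an unadjusted p of 0.05 (SLC2A1, SLC2A3, HK1, GPI, ALDOA, PGK1, LDHA; 23.3%), against 7.14% of all genes lower, none lay higher, against 5.21%, and none of them passed adjustment (adjusted p from 0.37 to 0.40).

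SLC2A1 differed by -0.24, -0.08 and -1.15 in pairs 1 to 3 at 48 h and SLC2A3 by -0.23, -0.22 and -1.27, so the sign was shared and the size rested on pair 3. PGK1 differed by -0.26, -0.11 and -0.34, with a mean of -0.24 (95% interval -0.48 to 0.00), and LDHA by -0.33, -0.12 and -0.26, with a mean of -0.24 (95% interval -0.53 to 0.05). In these 2 enzymes pair 3 was of the same order as pair 1. PDK4 differed by -0.99, -0.73 and 1.10, so its pairs disagreed. PDK1 differed by -0.13, 0.02 and -0.68 at 48 h, against 0.36, 0.39 and 0.31 at 12 h. The CsA effect at 48 h minus that at 12 h was -0.61 (adjusted p = 1.00).

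Isoform use was described by the difference between 2 isoenzymes on the same array, which shows unequal change and not which form is more abundant, since probe sets differ in brightness. For 9 pairs with both partners tested and 4 comparisons each, 36 exact permutation tests of 3 against 3 arrays were run, two-sided, where the smallest p possible is 0.10. It was reached in 16 tests, and the smallest p adjusted over the 36 was 0.225, so none passed. Among isoenzymes outside the list, the liver pyruvate kinase PKLR, the hexokinase HK3, the muscle mutase PGAM2 and the testis forms PGK2, GAPDHS and LDHAL6B stayed below 4 on every array, as did the sodium-glucose carriers SLC5A1 and SLC5A2 and the insulin-regulated carrier SLC2A4. HKDC1 lay between 9.79 and 12.40 and ENO3 between 6.87 and 8.84. For the paired sign permutation of CsA against control the smallest p was 0.25, which is also the smallest possible with 3 numbered pairs.

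ENO2 minus ENO1 changed most evenly: it was higher at 48 h by 0.93 under CsA and by 0.94 in controls, with no overlap between times. LDHA minus LDHB was lower at 48 h by 0.53 under CsA and by 0.41 in controls, again with no overlap. SLC2A1 minus SLC2A3 was lower at 48 h by 0.50 under CsA and 0.69 in controls. PFKFB4 minus PFKFB3 was lower by 0.86 under CsA and by 0.84 in controls. PFKP minus PFKL differed by -0.02 under CsA and 0.37 in controls, and PFKM minus PFKL differed by 0.39 under CsA and 0.53 in controls. In the 4 pairs named first, the balance shifted the same way in CsA and control cultures.

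HK2 minus HK1 was higher at 48 h by 0.76 in controls with no overlap, and by 0.30 under CsA, where 2 arrays lay above and replicate 3 below all 12 h values. At 12 h it was higher under CsA than in controls by 0.35 (-2.32, -2.28 and -2.44 under CsA, -2.87, -2.45 and -2.78 in controls). PDK1 minus PDK2 was also higher under CsA at 12 h by 0.35, and PFKFB3 minus PFKFB2 lower by 0.64, each without overlap. Between the times, PDK1 minus PDK2 was lower under CsA by 0.78, and PFKFB3 minus PFKFB2 lower in controls by 1.26. At 48 h the groups overlapped in all 9 pairs.

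**Figure D5:**
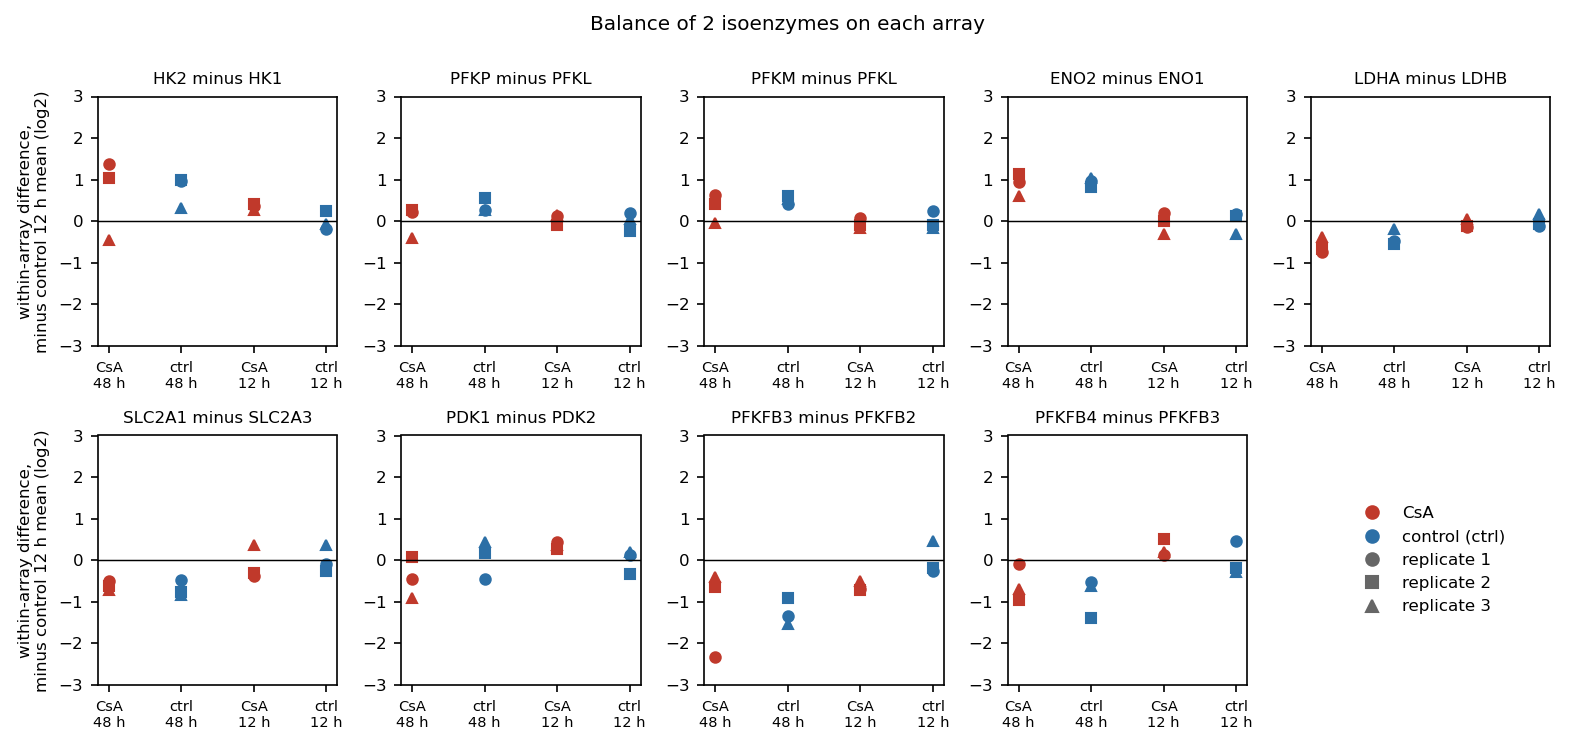
Within-array difference between 2 isoenzymes (log2), relative to its control 12 h mean, for 9 pairs on every array; marker shape gives the replicate number. ENO2 minus ENO1 is higher at 48 h by 0.93 under CsA and 0.94 in controls, and LDHA minus LDHB is lower by 0.53 and 0.41.

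Other genes of sugar and pyruvate handling were counted by list, for which the shares of all genes called at 48 h against 12 h were 6.77% higher and 7.58% lower under CsA, and 12.5% higher and 13.7% lower in controls. With lists of 3 to 11 genes, single calls weigh heavily in each share. In controls at 48 h against 12 h, 3 of 9 other sugar and lactate carriers tested rose, among them SLC16A4 by 1.67 (adjusted p = 0.0064) and the pyruvate and lactate carrier SLC16A7 by 0.99 (adjusted p = 0.013), and none fell. Under CsA 2 of 9 rose and 1 fell. Of 8 other glycolytic isoenzymes, 3 rose in controls, among them the hexokinase-like HKDC1 by 1.83 (adjusted p = 0.044) and ENO3 by 1.28 (adjusted p = 0.013), and none of them passed under CsA. Of 10 glycogen genes tested, 1 rose under CsA and 3 in controls, including the phosphorylase PYGL, by 0.40 (adjusted p = 0.026) under CsA and 0.36 (adjusted p = 0.024) in controls.

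Of 10 pyruvate import and dehydrogenase genes tested, DLAT, a subunit of the dehydrogenase complex, fell by 0.50 under CsA (adjusted p = 0.030), and PDP1, the phosphatase that opposes the PDKs, rose in controls by 0.86 (adjusted p = 0.019). Of 3 gluconeogenic genes tested, PCK2, the mitochondrial PEP carboxykinase, rose in controls by 2.05 (adjusted p = 0.040). Of 6 genes of the pentose and hexosamine branches tested, 1 fell under CsA, and 1 rose and 2 fell in controls. PRPS1, which uses ribose 5-phosphate for nucleotides, fell by 1.36 under CsA (adjusted p = 0.030) and by 1.43 in controls (adjusted p = 0.016). None of these lists had a gene called between CsA and control at either time.

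Of 11 regulators tested, 2 fell under CsA (against 7.58% of all genes), and 2 rose and 3 fell in controls (against 12.5% and 13.7%). TXNIP, a glucose-induced inhibitor of glucose uptake, was called lower at 48 h in both treatments (limma adjusted p = 0.041 under CsA and 0.010 in controls). That fit uses values under the filter, and under CsA only 2 of 3 arrays were far lower. TXNIP read 3.77, 2.96 and 8.55 under CsA and 3.44, 3.19 and 3.90 in controls at 48 h. At 12 h the values were 8.78, 8.83 and 9.58 under CsA and 8.27, 8.58 and 9.15 in controls. At 48 h, 2 CsA arrays and all 3 controls lay under the filter value of 4, so only a bound is given. With those arrays raised to 4, the group mean of TXNIP fell by 3.55 or more on the log2 scale under CsA. In controls it fell by 4.67 or more. CsA 48 h replicate 3 stood at the 12 h level of TXNIP, as an array in which 61.9% of all genes lay nearer the CsA 12 h mean. A link to the low SLC2A1, HK2 and PDK1 of that array was not tested. EPAS1, which encodes a hypoxia-inducible factor subunit, rose by 1.60 in controls (adjusted p = 0.0042) and read 13.20, 13.44 and 12.19 under CsA and 13.42, 13.57 and 13.07 in controls at 48 h. Its CsA replicate 3 was again nearest the 12 h values, 11.92 to 12.25 under CsA. PCK2 also had its lowest 48 h value in replicate 3 of each treatment, with 10.34, 10.24 and 7.56 under CsA and 10.51, 10.09 and 9.38 in controls. The regulator EGLN1 was called lower at 48 h in both treatments (limma adjusted p = 0.015 under CsA and 0.013 in controls). Its CsA 48 h values were 10.19, 10.04 and 9.62, so replicate 3 lay furthest from the CsA 12 h values, 10.53 to 10.76.

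Several genes have more than 1 probe set. Of the 30, 16 had at least 2 past the filter, and the sign of the difference was not shared by all of them for 5 genes between CsA and control at 12 h (HK2, PFKL, TPI1, PGK1, TKT) and for 5 at 48 h (HK2, TPI1, PGK1, ENO1, PKM). For the change between times it was not shared by HK2, PDK1, RPE and TKT under CsA and by HK2 and TKT in controls. Of the chosen probe sets, 4 carry the design's mark for possible cross-hybridisation with other transcripts, those of SLC2A3, ALDOA, GAPDH and LDHB.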

How the data were processed

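RNA from 12 HK-2 cultures was hybridised to Affymetrix arrays. The deposited values are log2 expression from the authors' GCRMA, per the submitters' processing notes, with the log2 scale read from their range (0.68 to 16.03). Probe sets were named through the platform annotation: of 54675, 62 controls were left out, 41091 had 1 symbol, 1801 several and 11721 none. Each gene took its brightest probe set. Genes above 4 on all 3 arrays of a group entered a limma fit (3.58.1, R 4.3.3) of 4 group means with 8 residual df. P-values were adjusted by Benjamini-Hochberg over the 10508 genes, and 0.05 was the threshold. Fold changes are 2 to the power of the log2 difference. Intervals are at 95%. The code was tested on simulated data. Isoenzyme balances used exact permutation tests (scipy 1.17.1).

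Replicate numbers come from the labels. The pairing comes from the data: same-numbered arrays of 1 time correlated at 0.366 to 0.783 in their deviations, so the block was run within time. The labels call the cultures biological replicates. Members and lists were chosen with earlier results of these data known. All 33 genes were named whatever their values, and other genes by a fixed rule of largest calls per list. Alternatives covered the filter, scaling, probe set choice, moderation, arrays in the fit, single arrays left out and the block. The number of arrays limits the precision.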

Additional observations from a re-analysis of the deposited data

Results flagged for a closer look

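Of the 30 genes, SLC2A3 and RPE had CsA below control in all 3 pairs at 48 h and above it in all 3 pairs at 12 h. SLC2A3 differed by -0.23, -0.22 and -1.27 at 48 h and by 0.19, 0.07 and 0.04 at 12 h, a change of effect (48 h minus 12 h) of -0.67 (95% interval -1.54 to 0.21, limma adjusted p = 1.00). RPE differed at 48 h by -0.12 and -0.29 in pairs 2 and 3, while its arrays in pair 1 were within 0.01 of each other, nearly a tie, and differed by 0.10, 0.03 and 0.05 at 12 h. Its change of effect was -0.19 (95% interval -0.76 to 0.38, limma adjusted p = 1.00). Neither change passed the test, nor did either with the replicate block (adjusted p = 0.54 for SLC2A3 and 0.63 for RPE).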

How the results depend on the processing

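No gene of the 30 passed between CsA and control, or for the change of that effect, in any of 20 settings each. Over all genes, the 12 h count of 0 became 1 with no filter and with the 6 arrays of the comparison alone, 3 with the replicate block, 8 with the block and a variance trend with robust moderation, 5 with the block on the 6 arrays of 12 h alone and 154 with both. The count for the change of effect became 2 with block, trend and robust moderation. For CsA at 48 h against 12 h, the 1508 genes and 8 members called became 988 and 4 with no filter, 34 and 0 with the 6 arrays alone, and 432 to 3885 genes and 1 to 18 members leaving out each array; a replicate block shared over all groups gave 2394 genes. In controls the 2756 genes and 11 members became 1322 to 3189 and 4 to 13 leaving out each array. The median over members at 48 h against 12 h under CsA was -0.19 with the mean of a gene's probe sets and -0.27 to -0.077 leaving out each array, and that of CsA against control at 48 h was -0.21 to -0.042 likewise. TKT in controls turned to -0.12 (adjusted p = 0.65) with the mean of its probe sets, and HK2 under CsA, at -0.24 to 0.39 leaving out each array, to 0.39 (adjusted p = 0.030) without CsA 48 h replicate 3. The cause was not tested. The probe set filter and 3 arrays a group limit what can be called.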
